A study of Mus musculus with 80 samples.

Results

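The regions described here were 2-kb bins of the mouse genome (GRCm38) that overlapped an olfactory receptor gene on an autosome. A bin was included when it touched the span of a gene whose symbol is Olfr followed by digits in the RNA-seq table of the study. This gave 1081 rows for 1080 symbols (Olfr247 is listed at 2 positions), whose spans, 957 bp in the median, touched 2011 bins of the grid. Of these, 1613 (80.2%) were listed in the H3K9me2 ChIP-seq table, against 83.1% of all autosomal bins between the first and the last listed one, and they were 1613 of 995960 autosomal bins. At least 1 listed bin was present for 944 receptors, and 137 receptors had none and could not be measured.

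Olfactory receptors are G protein-coupled receptors of sensory neurons in the nose, and their genes are the largest gene family of the mouse, arranged in tandem clusters on many chromosomes. Each mature sensory neuron expresses 1 of these genes from 1 allele, while the others are packed in heterochromatin. Dimethylation of lysine 9 of histone H3 (H3K9me2) is a mark of silent chromatin laid down largely by EHMT2 (G9a) and its partner EHMT1 (GLP), and it covers broad domains that lack active genes.

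The cells were E14 wild-type mouse embryonic stem cells (ESCs), an established line. They were kept with LIF in fetal calf serum (serum) or moved to 2i, a serum-free medium with LIF, the MEK inhibitor PD0325901 and the GSK3 inhibitor CHIR99021. ChIP-seq with 1 antibody to H3K9me2 (Abcam ab1220) gave 9 libraries. Each of 3 conditions, namely serum, 2i for 24 h, and LT2i (2i for a longer time that the labels do not give), had 2 bound libraries and 1 input. RNA-seq covered serum and 6, 24 and 72 h of 2i, with 3 libraries each and none for LT2i. The study calls its replicates of expression over the move to 2i biological. For the ChIP-seq the sources used here do not say whether replicates came from separate cultures, so its p-values measure only the spread between these libraries.

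The RNA-seq libraries matched their labelled cell type, which was not checked in the ChIP-seq libraries. All of the ESC markers examined were high in serum RNA, from 5.28 for Klf4 to 8.29 for Pou5f1 on the log2 scale of the table. Of the mature olfactory neuron markers, Cnga2 had no read in any of the 12 libraries and Stoml3 averaged -4.34 in serum. Adcy3 (0.39), Gnal (-1.33) and Omp (-2.23) were detected at higher levels in serum, with Omp at -1.33, -4.06 and -1.29 in its libraries. The neural genes Tubb3 and Ncam1 averaged 5.38 and 1.40 in serum. ChIP-seq depth ran from 14396552 to 23785128 reads in listed bins per library, with a median of 13 to 23 reads per bin, so that a single bin carried a large counting error.

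Promoter sequences were taken from RefSeq (GRCm38.p6), 250 bases before to 50 bases after each annotated start, and 912 receptors had an entry. Receptor promoters were AT-rich, with a median GC content of 35% against 53% for the 26113 promoters of other genes. They held a median of 1 CpG, the dinucleotide that DNA methylation acts on, against 8 elsewhere, and 33.8% against 4.80% held none. At 73.2% of the receptor entries an ATG stood at the annotated start, against 4.43% of the others, so for most receptors the annotated start is that of the coding sequence and the window lies near the upstream end of the gene model, not at a mapped transcription start. TAATTA, the core of many homeodomain sites and read alike on both strands, was present in 18.9% of receptor promoters and 4.84% of the others. CCCNNGGG, the core of the Ebf site and also the same on both strands, was present in 3.07% and 13.8%. A match describes letters in the window and not a bound site, and the shares were not corrected for the difference in GC content.

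The promoters of receptors from the high and the low end of H3K9me2 in serum are shown next, 5′ to 3′ on the strand of the gene, with every CpG in capitals, so that the range of base composition behind the values below can be seen. Among the highest, Olfr549 (chr7:102554036-102554335, plus strand) had no CpG and 43.7% GC, Olfr1394 (chr11:49159766-49160065, plus strand) had 5 CpGs, and Olfr414 (chr1:174430180-174430479, plus strand) had 8. Among the lowest, Olfr94 (chr17:37197917-37198216, minus strand) had 3 CpGs, Olfr90 (chr17:37086187-37086486, minus strand) had 2 and 49.7% GC, and Olfr1055 (chr2:86347715-86348014, minus strand) had 3 CpGs, 23.3% GC and 1 TAATTA. CpG number did not separate these high from these low genes.
Olfr549: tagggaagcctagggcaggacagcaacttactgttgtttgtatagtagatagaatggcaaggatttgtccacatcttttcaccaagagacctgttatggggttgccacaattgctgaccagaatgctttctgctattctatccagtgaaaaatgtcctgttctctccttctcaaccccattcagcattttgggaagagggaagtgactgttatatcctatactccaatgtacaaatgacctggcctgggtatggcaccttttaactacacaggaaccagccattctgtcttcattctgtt
Olfr1394: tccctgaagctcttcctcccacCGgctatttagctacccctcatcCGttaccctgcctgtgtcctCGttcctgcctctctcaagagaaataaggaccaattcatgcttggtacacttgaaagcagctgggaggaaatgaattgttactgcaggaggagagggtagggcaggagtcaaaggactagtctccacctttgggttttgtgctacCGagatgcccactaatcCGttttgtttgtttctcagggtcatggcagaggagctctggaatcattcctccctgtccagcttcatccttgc
Olfr414: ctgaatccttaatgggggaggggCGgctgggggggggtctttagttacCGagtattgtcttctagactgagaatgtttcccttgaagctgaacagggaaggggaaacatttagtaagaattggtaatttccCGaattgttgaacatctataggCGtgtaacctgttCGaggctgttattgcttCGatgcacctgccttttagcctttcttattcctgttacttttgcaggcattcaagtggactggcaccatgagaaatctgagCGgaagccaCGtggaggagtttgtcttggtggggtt
Olfr94: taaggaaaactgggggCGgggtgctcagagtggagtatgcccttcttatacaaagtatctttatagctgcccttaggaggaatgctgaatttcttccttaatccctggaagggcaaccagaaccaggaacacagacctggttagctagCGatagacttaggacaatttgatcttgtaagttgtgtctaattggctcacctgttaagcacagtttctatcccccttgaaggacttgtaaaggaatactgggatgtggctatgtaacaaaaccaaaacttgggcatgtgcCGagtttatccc
Olfr90: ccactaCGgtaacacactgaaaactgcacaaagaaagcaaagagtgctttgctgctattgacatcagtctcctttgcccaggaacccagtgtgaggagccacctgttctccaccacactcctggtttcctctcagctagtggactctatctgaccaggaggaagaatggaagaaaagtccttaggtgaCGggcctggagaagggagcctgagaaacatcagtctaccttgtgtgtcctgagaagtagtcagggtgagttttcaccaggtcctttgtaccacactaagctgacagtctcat
Olfr1055: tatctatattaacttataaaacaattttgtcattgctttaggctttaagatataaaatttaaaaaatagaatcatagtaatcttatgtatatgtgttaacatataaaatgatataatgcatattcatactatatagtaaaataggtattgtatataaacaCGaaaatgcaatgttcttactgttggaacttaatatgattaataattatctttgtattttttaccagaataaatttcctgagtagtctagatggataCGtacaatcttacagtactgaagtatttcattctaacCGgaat

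The first question was whether receptor bins carried H3K9me2 above input in ESCs and how this level moved from serum to 2i. The level of a bin was its log2 bound reads less its log2 input reads of the same condition, both scaled to library size by the authors, so a gain or loss shared by the whole genome cannot be seen. Receptor bins averaged 0.17 and 0.26 in serum, 0.28 and 0.28 at 24 h, and 0.32 and 0.37 in LT2i. All 6 libraries were above input, and both LT2i values lay above both serum values, although the 2 serum libraries were themselves well apart. All autosomal bins averaged -0.30 and -0.31 in serum, -0.35 and -0.35 at 24 h, and -0.63 and -0.63 in LT2i. From serum to LT2i the mean over libraries rose from 0.21 ± 0.07 (SD, n = 2) to 0.35 ± 0.04 in receptor bins. Over all bins this mean of log2 values went from -0.30 ± 0.01 to -0.63 ± 0.004. The gap between receptor bins and all bins widened from 0.52 in serum to 0.63 at 24 h and 0.98 in LT2i. Both changes are relative to library totals, so the fall over all bins does not measure a loss of the mark from the genome. The study reports a global loss of this mark after the move out of serum, by western blot and immunofluorescence. Whether receptor bins gained or lost the mark in absolute amount was not tested. In the 483 bins with 1 kb or more inside a receptor gene the condition means were 0.19, 0.25 and 0.22, a smaller rise than over all receptor bins. No p is given for these means, which are scores over all members with 2 libraries per condition.

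**Figure D1:**
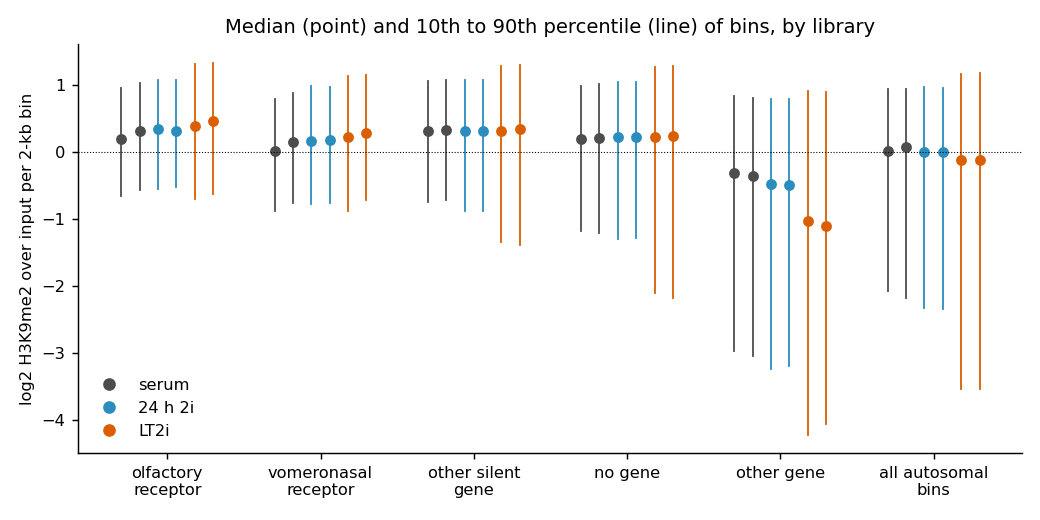
H3K9me2 level over input (log2, vertical axis) for olfactory receptor bins and for other classes of autosomal bins; each point is the median over bins in 1 of 6 bound libraries and each line runs from the 10th to the 90th percentile of the bins. Receptor medians lie between 0.20 and 0.47, and the lines of receptor bins reach less far down than those of all autosomal bins.

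Other bin classes were set beside the receptors. Bins of silent genes, meaning bins that touch only genes with no read in any RNA-seq library, began at a like level in serum (0.19 and 0.21) and ended at 0.10 and 0.10 in LT2i. Bins of vomeronasal receptors, the pheromone receptors of the Vmn1r and Vmn2r families, went from -0.03 and 0.10 to 0.16 and 0.25, the same direction as the olfactory receptors. Bins in no gene went from -0.00 and 0.01 to -0.11 and -0.11, and bins of other genes from -0.71 and -0.76 to -1.34 and -1.36. Low bins made much of this spread: 10.4% to 22.2% of all autosomal bins per library stood below -2 on this scale, but 0.372% to 1.49% of receptor bins. Bins above input were 63.1% to 70.8% of the receptor bins in each library, against 45.6% to 52.3% of all autosomal bins, and 62.9% to 69.6% of silent gene bins, a range close to that of the receptors. The summary used decides what silent gene bins did. By medians they had 0.32 and 0.34 in serum and 0.32 and 0.34 in LT2i, and by log2 of summed reads they went from 0.32 and 0.33 to 0.39 and 0.40. Receptor bins rose by each summary, with medians of 0.20 and 0.32 in serum and 0.39 and 0.47 in LT2i and summed values of 0.25 and 0.33 and of 0.48 and 0.54. Vomeronasal bins rose by each as well. Their medians went from 0.02 and 0.16 to 0.23 and 0.29, and their summed values from 0.07 and 0.18 to 0.31 and 0.39. Summed over all autosomal bins the value is 0.00 in each library, because libraries were scaled to their totals.

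Single bins were tested with limma across all 9 libraries, with Benjamini-Hochberg (BH) adjustment over all autosomal bins and a call at adjusted p under 0.05. Over the 3 conditions together, bound libraries were higher than input in 488 receptor bins (30.3%), where 23.6% of all autosomal bins were called higher, and lower in 37 (2.29%), where 27.7% of all were called lower. The median bound over input was 0.32 in receptor bins, 0.34 in bins of silent genes, 0.24 outside genes, 0.16 in vomeronasal bins and -0.64 in bins of other genes. Bins of silent genes were called higher more often than receptor bins (34.8%) and also lower more often (9.51%). Of bins outside genes 29.4% were called higher and 15.1% lower, and of the 793 vomeronasal bins 16.0% were higher and 2.40% lower. The 483 bins with 1 kb or more inside a receptor gave 143 higher and 17 lower. Of the 51 bins that also touched a gene of another name, 22 were higher and 2 lower.

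Changes between conditions were tested next. At 24 h against serum limma called 0 receptor bins in either direction and 0 of all bins (background 0%), with 54 receptor bins (3.35%) and 3.56% of all at an unadjusted p under 0.05. In LT2i it again called 0 (background 0%), with 148 receptor bins (9.18%) and 12.6% of all at an unadjusted p under 0.05. Each condition has 1 input, whose error enters these contrasts and those of bound over input. A lone input gives no spread, so inputs were assumed to vary like the bound libraries. When bound libraries were compared with each other and the inputs left out, 70 receptor bins were called higher (4.34%, background 3.06%) and 31 lower (1.92%, background 8.71%) in LT2i. The median LT2i change was 0.16 in receptor bins, 0.18 in vomeronasal bins, -0.05 in bins of silent genes, -0.52 in bins of other genes and -0.22 over all. Centring every library on its median moved the LT2i median of all bins to -0.09 and that of receptor bins to 0.29.

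Reads were therefore summed in 100-kb windows of a fixed grid, which lowers counting error and fits the size of receptor clusters. Of 336 windows that touched a receptor, 270 had at least 25 listed bins and were tested among 22459. H3K9me2 was higher than input in 195 of them (72.2%, background 55.5%) and lower in 42 (15.6%, background 36.2%). At 24 h of 2i 0 receptor windows were called by limma in either direction (background 0.00445% higher and 0% lower), and 22 (8.15%) against 6.68% of all windows had an unadjusted p under 0.05. In LT2i 70 receptor windows rose (25.9%, background 17.1%) and 26 fell (9.63%, background 32.3%). The median LT2i change was 0.21 in receptor windows and -0.03 over all windows. With inputs left out, more windows were called over the whole genome: 165 receptor windows rose (61.1%, background 37.6%) and 34 fell (12.6%, background 39.4%), and at 24 h 10 rose (3.70%, background 1.58%) and 0 fell (background 2.69%).

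Whether a window rose or fell went with the presence of other, transcribed genes in it. A gene with RNA was a gene other than an olfactory receptor whose mean log2 RNA value over the 12 libraries was at least 0. Of the 26 receptor windows that fell, 23 (88.5%) held such a gene, against 5 of the 70 that rose (7.14%) and 24 of the 174 that were not called (13.8%). Counted the other way, 23 of the 52 receptor windows with a gene with RNA fell (44.2%) and 5 rose. Of the 218 without one, 3 fell (1.38%) and 65 rose (29.8%). Windows of the whole genome showed the same division: 66.9% of those with a gene with RNA fell and 3.15% rose, whereas 11.3% of those without one fell and 25.6% rose. The level over input was shared as well. Among windows without a gene with RNA, 184 of 218 receptor windows and 11489 of all 13982 were higher than input. Their median bound over input was 0.34 in receptor windows and 0.40 in all such windows. The receptor windows that fell lay on 13 chromosomes and those that rose on 11.

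**Figure D2:**
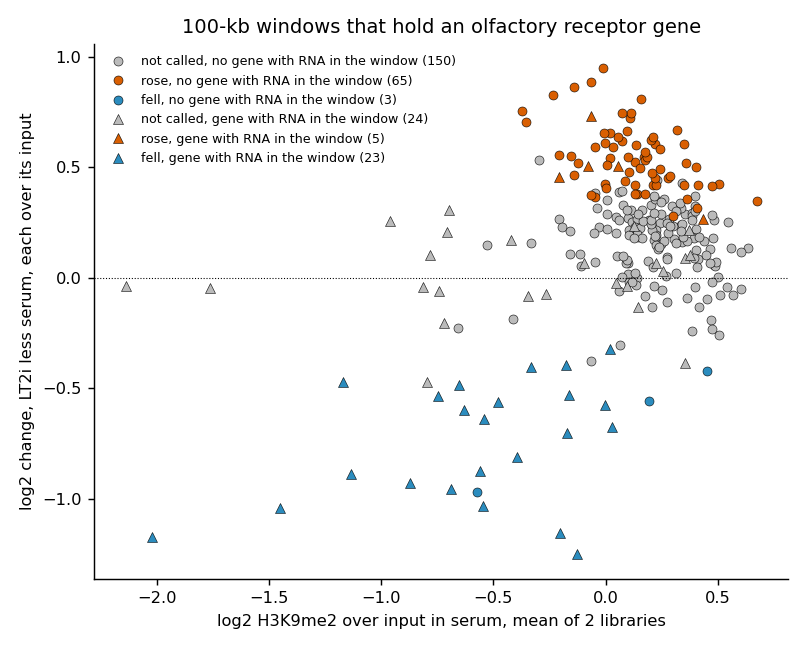
LT2i change of H3K9me2 in the 270 receptor windows; the axes are the mean level over input in serum and the change of LT2i against serum, both log2, colours mark windows that rose, fell or were not called, and triangles mark windows that hold a gene with RNA. Of the 26 windows that fell, 23 hold a gene with RNA, and 65 of the 70 that rose hold none.

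The largest falls and rises were each found on more than 1 chromosome. The window chr11:59600001-59700000, which holds Olfr225, changed by -1.25 ± 0.17 (SE, limma). Olfr1371 on chromosome 11 (-1.17), the pair Olfr462 and Olfr463 on chromosome 11 (-1.15), Olfr90 and Olfr91 on chromosome 17 (-1.04) and Olfr49 on chromosome 14 (-1.03) were in the next windows. Olfr1371, Olfr462 and Olfr463 had no listed bin, so the values of their windows come only from DNA outside these receptors. Rises were largest in chr9:19400001-19500000, which holds Olfr849, Olfr850 and Olfr851 (0.95 ± 0.14), followed by the window of Olfr291 on chromosome 7 (0.88) and that of Olfr871, Olfr872 and Olfr39 on chromosome 9 (0.86). Over all calls the falls ran from -1.25 to -0.32 and the rises from 0.27 to 0.95.

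Receptors were next grouped into clusters, runs of receptor genes with gaps under 1 Mb. There were 46 clusters with listed bins, of which 21 held 10 or more receptors. Mean serum levels were above 0 in 18 of those 21. For receptor bins, both LT2i libraries lay above both serum libraries in 11 of the 21, below in 2, and overlapped in 8. By the same rule the bins between receptors that touch no gene were above in more of the 21, and also below in more. The count of rises is therefore not particular to receptor bins. Among the 25 smaller clusters the receptor bins gave 9 above, 9 below and 7 overlapping, so the small clusters were divided evenly between the directions.

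The largest cluster, 218 receptors on chromosome 2 (85.33 to 90.28 Mb), had receptor bin means of 0.05 and 0.27 in serum, 0.20 and 0.25 at 24 h, and 0.22 and 0.37 in LT2i. Its serum and LT2i values overlapped, while 9 of its 40 windows rose and 1 fell (17.1% and 32.3% of all windows). The next, 124 receptors on chromosome 7 (102.48 to 105.37 Mb), had 0.50 and 0.53 in serum, 0.45 and 0.43 at 24 h, and 0.53 and 0.47 in LT2i. This cluster, which holds most class I receptors, the group also known from fish, had both 24 h values below both serum values and LT2i values that overlapped serum. Of its 19 windows 0 rose and 2 fell (17.1% and 32.3% of all windows), and both of these were at its ends and held a gene with RNA. The cluster of 93 receptors on chromosome 9 (37.71 to 40.19 Mb) went from -0.04 and 0.10 in serum to 0.21 and 0.19 at 24 h and 0.24 and 0.34 in LT2i. Here neither 2i condition overlapped serum, and 7 of 24 windows rose and 0 fell, where 17.1% of all windows rose and 32.3% fell.

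Of clusters of 63 receptors there were a pair. On chromosome 19 (11.83 to 13.92 Mb) the values were 0.24 and 0.34 in serum, 0.37 and 0.16 at 24 h and 0.28 and 0.29 in LT2i. On chromosome 7 (106.68 to 108.89 Mb) they were 0.12 and 0.25, 0.32 and 0.35, and 0.43 and 0.53 in the same order. The first overlapped between conditions, and in the second both 2i conditions stood above serum. The 58 receptors on chromosome 10 (128.99 to 130.21 Mb) stayed near input, at -0.13 and 0.12 in serum, -0.10 and -0.02 at 24 h, and -0.07 and 0.03 in LT2i. The 46 on chromosome 17 (37.09 to 38.34 Mb) went from -0.06 and -0.04 through 0.06 and 0.09 to 0.22 and 0.37. The 37 on chromosome 2 (111.23 to 112.16 Mb) went from 0.20 and 0.42 through 0.46 and 0.48 to 0.62 and 0.89. In both of these, the LT2i libraries were above the serum libraries.

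The ends of the order in serum were also examined among clusters of 10 or more receptors. The highest was that of 18 receptors on chromosome 1 (172.96 to 174.45 Mb), at 0.62 and 0.72 in serum, 0.87 and 0.88 at 24 h and 1.08 and 1.02 in LT2i. The lowest was that of 35 receptors on chromosome 9 (18.75 to 20.34 Mb), at -0.19 and -0.11 in serum, 0.12 and 0.09 at 24 h and 0.33 and 0.47 in LT2i. In both clusters each later condition was higher in both libraries. In the first 0 of 6 windows were called in either direction, and in the second 11 of 13 rose and 0 fell, where 17.1% and 32.3% of all windows did. A cluster chosen after its values were seen went the other way: 23 receptors on chromosome 11 (58.45 to 59.61 Mb), had 0.55 and 0.43 in serum, 0.26 and 0.21 at 24 h, and -0.20 and -0.41 in LT2i, and 3 of its 6 windows fell (32.3% of all windows did). A further small one, also chosen after its values were seen, 6 receptors on chromosome 4 (43.70 to 43.86 Mb), went from 0.03 and -0.15 in serum to -1.51 and -1.71 in LT2i, and 3 of its 3 windows fell. Between the ends of the cluster lay 16 genes with RNA on chromosome 11 and 0 on chromosome 4, where 2 of the 3 windows held one outside those ends. The chromosome 14 cluster with the most, 21 among 36 receptors (49.89 to 52.50 Mb), had 0.16 and 0.18 in serum and 0.42 and 0.45 in LT2i.

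**Figure D3:**
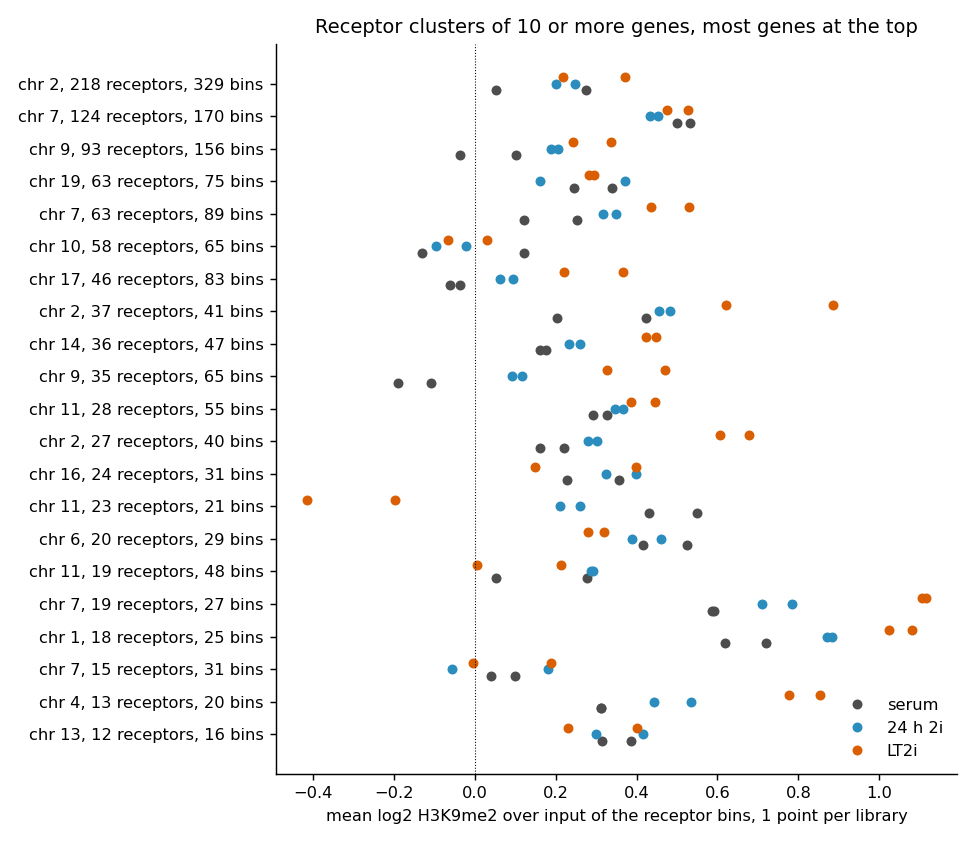
Mean log2 bound over input of receptor bins in each receptor cluster of 10 or more genes, 1 point for each bound library; the horizontal axis is the level, colours mark the condition, and the rows are clusters with their chromosome, receptors and bins. The 218-receptor cluster spans 0.05 to 0.37, the 18-receptor cluster on chromosome 1 reaches 1.08, and the 23-receptor cluster on chromosome 11 drops to -0.41 in LT2i.

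Within the clusters of 10 or more receptors, receptor bins were compared with bins between the receptors that touch no gene. The 1463 receptor bins averaged 0.16 and 0.26 in serum, 0.27 and 0.28 at 24 h, and 0.33 and 0.40 in LT2i. The 6982 intergenic bins of the same clusters averaged -0.02 and 0.06, 0.10 and 0.10, and 0.12 and 0.19. In these pooled means receptor bins were higher in 6 of 6 libraries, while both kinds of bin moved up from serum to LT2i. Single clusters differed. In the 218-receptor cluster on chromosome 2 receptor bins averaged 0.16 in serum and 0.29 in LT2i, and intergenic bins 0.17 and 0.33. In the 124-receptor cluster on chromosome 7 receptor bins averaged 0.52 and 0.50, and intergenic bins 0.21 and 0.11. Over all clusters of 10 or more receptors, the 275 bins of silent genes averaged 0.12 and 0.21 in serum, close to the pooled receptor bins. They averaged 0.18 and 0.19 at 24 h and 0.14 and 0.19 in LT2i, where they overlapped serum. Bins of other genes inside the clusters, 1220 in number, averaged -1.03, -1.02 and -1.68 in the 3 conditions.

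Position along the genes and across the cluster edges were then examined. In the interval centred 1 kb downstream of the annotated start the mean level was 0.18 and 0.28 in serum, 0.32 and 0.32 at 24 h, and 0.38 and 0.41 in LT2i. At 3 kb upstream it was 0.01 and 0.13, 0.05 and 0.06, and 0.07 and 0.16, and at 3 kb downstream 0.05 and 0.16, 0.15 and 0.19, and 0.19 and 0.26, so the short receptor genes stood above both flanks in every library. Across the edges of clusters of 10 or more receptors, the interval centred 25 kb inside averaged 0.10 in serum, 0.15 at 24 h and 0.18 in LT2i. Farther inside, at 125 kb, it averaged -0.18, -0.08 and -0.15 over all bins, those of other genes included. At 25 kb outside it averaged -0.45, -0.49 and -0.76, and at 275 kb outside -0.96, -0.98 and -1.53. The step at the edge was thus wider in LT2i than in serum.

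**Figure D4:**
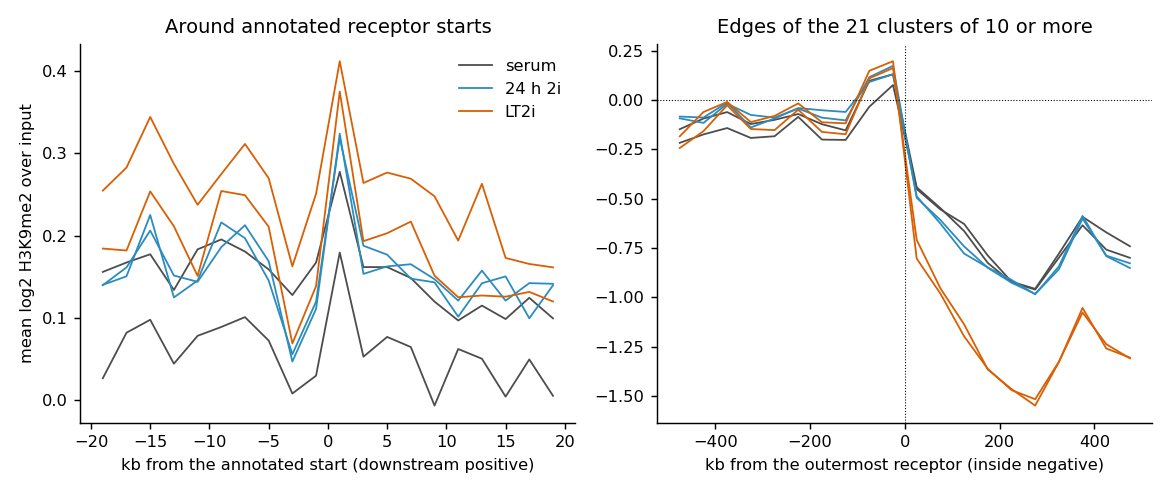
Mean log2 bound over input in 2-kb steps around annotated receptor starts and in 50-kb steps across the edges of clusters, with 1 line for each bound library, coloured by condition; the horizontal axes are distance in kb. The level peaks 1 kb into the gene and steps from 0.18 inside to -0.76 outside the cluster edge in LT2i.

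The receptors were also divided by class, cluster size, distance to a gene with RNA, and their own RNA. Class I receptors (111 genes, 169 bins) averaged 0.50 and 0.52 in serum and 0.53 and 0.47 in LT2i. Class II receptors (818 genes, 1421 bins) went from 0.13 and 0.23 to 0.30 and 0.37. Nearly all class I genes are in a single cluster, where 119 of 124 receptors are class I, so class and cluster cannot be told apart. By cluster size, receptors in clusters of 1 to 9 averaged 0.28 in serum and 0.15 in LT2i, those in clusters of 10 to 49 averaged 0.21 and 0.43, and those in clusters of 50 or more 0.21 and 0.33.

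Group means differed with distance to the nearest gene with RNA, with both directions common in every group: the fitted LT2i change was above 0 in 42.9% of the receptors within 50 kb, in 63.6% at 50 to 250 kb and in 65.0% farther away. The 105 receptors within 50 kb of one averaged 0.26 in serum and 0.02 in LT2i (0.07 and -0.02 in its libraries). The 305 at 50 to 250 kb averaged 0.34 and 0.49, and the 534 farther away 0.14 and 0.35. The difference between these groups was not tested. The 36 receptors with at least 1 RNA-seq read averaged 0.02 in serum and 0.03 in LT2i, against 0.22 and 0.36 for the 908 without a read, and their libraries in serum were -0.04 and 0.09.

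Individual gene bodies were tested on the summed reads of their bins, 944 receptors among 22807 autosomal genes. Over the 3 conditions, 330 receptors were higher than input (35.0%, background 15.2%) and 22 lower (2.33%, background 69.2%). The median bound over input was 0.38 for receptors and -1.26 for all genes. When libraries were centred on the median gene, which lies well below input, 915 receptors were higher (96.9%, background 47.1%) and 2 lower (0.212%, background 38.7%), so this count depends on the reference. At 24 h 0 receptors were called by limma (background 0%), with 10 (1.06%) against 3.74% of all genes at an unadjusted p under 0.05. In LT2i 7 receptors rose (0.742%, background 1.79%) and 4 fell (0.424%, background 29.7%), with a median change of 0.21 for receptors and -0.65 for all genes. Relative to that shift of all genes, with libraries centred on the median gene, 91 receptors rose (9.64%, background 14.6%) and 1 fell (0.106%, background 8.14%). The share of receptors that rose was under the background, but their median change was 0.89, against 0.03 for all genes. Of the 944 receptors, 482 had 1 listed bin and 375 had 2, so their single values carried a large counting error. With inputs left out 140 rose (14.8%, background 7.32%) and 32 fell (3.39%, background 53.8%). Single libraries also moved the 7 rises: 3 were left without serum replicate 1, 4 without serum replicate 2, 2 without either 24 h replicate and 3 without LT2i replicate 2, and without LT2i replicate 1 the falls numbered 10.

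The highest receptor in serum was Olfr1395 (chr11:49148259-49149212), at 2.50 and 1.49 in serum, 0.67 and 1.42 at 24 h, and 2.20 and 2.29 in LT2i. Its bound libraries held 61, 29, 27, 47, 58 and 53 reads over 11, 28 and 11 input reads. Every library was above input, serum and LT2i overlapped, and both 24 h values lay below all the others. Olfr1019 on chromosome 2 had 1.79 and 1.34 in serum, 1.56 and 1.82 at 24 h, and -0.02 and 0.44 in LT2i. Olfr549 (chr7:102554286-102555236), a class I receptor, had 1.55 and 1.43, 1.16 and 1.30, and 0.90 and 0.95. These genes were lower in LT2i than in serum in both libraries, but their limma tests of LT2i against serum did not pass (adjusted p 0.123 and 0.466). Olfr1394 had 1.42 and 1.53 in serum and 1.84 and 1.68 in LT2i, and Olfr414 had 1.58 and 1.34 and 1.94 and 1.91. These 5 were chosen for their serum values, each rests on 1 bin, and the values are a description.

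At the low end in serum were receptors below input. Olfr94 (chr17:37196708-37198011, 2 bins, with the gene Ubd within 2 kb) had -1.55 and -2.86 in serum, -2.23 and -3.28 at 24 h, and -2.73 and -2.84 in LT2i. Olfr90 at the edge of the same cluster, 10124 bp from a gene with RNA, had -1.14 and -3.08 in serum and -3.78 and -2.56 in LT2i. Both were below input in all 6 libraries. Olfr1055 on chromosome 2 had -1.67 and -1.61 in serum, -1.69 and -1.74 at 24 h, and -0.85 and 0.02 in LT2i. It had 35 RNA-seq reads over 11 of the 12 libraries, more than nearly all other receptors, and lay 1273676 bp from the nearest gene with RNA. Olfr1499 (-0.97 and -2.13) and Olfr1381 (-0.48 and -2.23) had widely separated serum libraries.

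The receptors that rose in LT2i were led by Olfr1340 (chr4:118726249-118727199), at -0.14 and -0.36 in serum, 0.61 and 0.56 at 24 h, and 1.81 and 1.72 in LT2i. Its bound reads were 23, 19, 25, 25, 48 and 39 and its input reads 26, 27 and 12, and the change was 2.02 ± 0.58 (SE, limma BH-adjusted p 0.0212). Reads rose in the bound libraries and were lowest in the LT2i input, and with inputs left out the change was 1.21. Olfr424 (chr1:174136746-174137693) had 0.54 and 0.36 in serum, 1.46 and 1.22 at 24 h, and 2.16 and 2.66 in LT2i, a change of 1.96 ± 0.63 (adjusted p 0.0344). Olfr578, a class I receptor, had 0.64 and 0.73, 0.45 and 0.46, and 2.28 and 2.18, a change of 1.54 ± 0.54 (adjusted p 0.0485). Neither had overlapping serum and LT2i libraries, and without inputs their changes were 1.19 and 0.79.

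Olfr868 showed how far a gene can rest on its input. Its level was -0.73 and -0.79 in serum and 0.47 and 1.08 in LT2i, a change of 1.53 ± 0.52 (limma adjusted p 0.0443), with bound reads of 39 and 36 in serum and 38 and 50 in LT2i over 66 input reads in serum and 24 in LT2i. Without inputs the change was 0.38 and was not called (adjusted p 0.233). Olfr275, which has 4930552N02Rik within 2 kb, had 0.52 and 0.99 in serum and 1.98 and 2.54 in LT2i, a change of 1.50 ± 0.49 (adjusted p 0.0366). Olfr539 changed by 1.20 ± 0.41 (adjusted p 0.0444) and by 0.61 without inputs.

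The best measured rise was that of Olfr872 (chr9:20237162-20260913), in the chromosome 9 cluster that was lowest in serum. It has 9 listed bins, which cover only part of its annotated span. It had -0.31 and -0.33 in serum, 0.05 and 0.16 at 24 h, and 0.73 and 0.66 in LT2i. Bound reads were 158, 150, 135, 152, 246 and 202 over 201, 216 and 130 input reads, and the change was 1.02 ± 0.21 (limma adjusted p 0.0041). It was below input in both serum libraries and above it in the other 4. Among the 7 rises, Olfr872 alone was called without each library in turn. Without serum replicate 2 the call of Olfr1340 was lost (adjusted p 0.0617), and the calls of Olfr424, Olfr578, Olfr868, Olfr275 and Olfr539 were each lost without 4 or more of the 6 bound libraries in turn (adjusted p up to 0.129).

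The 4 receptors that fell in LT2i all lay within 50 kb of a gene with RNA. Olfr222 (chr11:59570699-59571813), in the chromosome 11 cluster that fell, had -0.80 and -1.10 in serum, -1.47 and -0.74 at 24 h, and -4.15 and -5.09 in LT2i. Its bound reads were 14, 11, 7, 12, 2 and 0 over 25, 32 and 31 input reads. The change was -3.67 ± 0.92 (limma adjusted p 0.0112), and the ratio of LT2i to serum bound reads was 0.0895 (95% exact interval 0.0103 to 0.359, counting error only). Olfr15 (chr16:3838975-3839913) had 0.11 and -0.54 in serum, -0.80 and -0.05 at 24 h, and -2.86 and -4.23 in LT2i, from 18, 11, 8, 14, 3 and 1 bound reads. Its change was -3.33 ± 1.02 (adjusted p 0.0288). The fitted change of Olfr222 depends on how its library without a read was entered, and the read ratio of Olfr15, which had a read in every library, was 0.154 (0.0394 to 0.439).

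Olfr71 and Olfr70 are neighbours on chromosome 4 with 4 bins each. Olfr71 had -0.22 and -0.31 in serum, -0.61 and -0.38 at 24 h, and -1.91 and -2.45 in LT2i, from 63, 57, 42, 51, 22 and 13 bound reads. Olfr70 had -0.05 and 0.06, -0.28 and -0.33, and -1.37 and -1.41, from 90, 93, 63, 63, 31 and 26. In both genes the LT2i libraries were far below all others, with changes of -1.91 ± 0.47 and -1.39 ± 0.36 (limma adjusted p 0.0105 and 0.0122). When libraries were centred on the median gene, Olfr222 kept its call and Olfr15, Olfr70 and Olfr71 did not (-2.65, -0.72 and -1.24). The call of Olfr15 was also lost without serum replicate 1 (adjusted p 0.0929) and without 24 h replicate 2 (adjusted p 0.0501). Olfr159, which lies in the same chromosome 4 group, had a change of -2.42 that did not pass (limma adjusted p 0.0644). The next largest falls, of Olfr466 on chromosome 13 (-2.30) and Olfr1148 on chromosome 2 (-2.21), did not pass either (adjusted p 0.203 and 0.104). These uncalled receptors lay 104521, 39244 and 2595769 bp from a gene with RNA, in the order given.

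At 24 h the receptors with the largest changes were Olfr1034 (1.73), Olfr738 (1.72) and Olfr894 (1.63) upward and Olfr597 (-1.78), Olfr622 (-1.75) and Olfr791 (-1.58) downward. None of these passed limma.

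RNA of the receptors was near the limit of detection in every condition. Of 1081 rows, 1044 had no read in any of the 12 libraries, and 37 had at least 1 read. Among these, 10 had 1 read in all libraries together, 19 had 2 to 9 and 6 had 10 or more, and for the other 2, Olfr985 and Olfr613, reads could not be recovered from the values. Over the 1079 other receptors a library held 10 to 43 reads, from 5 to 17 receptors. A gene without a read in a library may still have a level that gives up to 3 reads, and in bulk RNA few expressing cells and little RNA in each cell cannot be told apart. Near-identical receptors share sequence, so the few reads of a gene may come from a relative.

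Only Olfr985 and Olfr613 were high enough to be tested (log2 value of at least 0 in 3 or more libraries). Olfr985 (chr9:40126924-40128039) had log2 RNA of 0.78, 0.92 and 0.75 in serum, 0.70, 0.77 and 1.11 at 6 h, 1.43, 1.06 and 1.59 at 24 h, and -0.60, -0.56 and 0.22 at 72 h. It was lower at 72 h than in serum in 3 of 3 libraries, by -1.13 ± 0.23 (limma adjusted p 0.00143). The 24 h difference of 0.54 did not pass (adjusted p 0.0550). At 72 h both receptors tested were called lower, where 26.5% of all 12306 genes were called lower and 25.7% higher.

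Olfr613 (chr7:103550368-103555504) had -0.35, 0.22 and 0.57 in serum, -0.75, -0.08 and 0.16 at 6 h, -2.54, -2.33 and -0.42 at 24 h, and -2.36, -2.99 and -0.69 at 72 h. At 24 h it was the only receptor called, lower by limma with -1.91 ± 0.64 (adjusted p 0.0215), where 29.1% of all genes were called lower and 34.2% higher. At 72 h the difference was -2.16 ± 0.64 (adjusted p 0.0141). The third library was the highest in serum and in each 2i condition. The 24 h call was lost without serum replicate 2 or 3 or 24 h replicate 1 or 2 (adjusted p 0.054 to 0.084). The 72 h call was lost without serum replicate 3 (adjusted p 0.054) or 72 h replicate 2 (adjusted p 0.059). At 6 h 0 receptors were called in either direction by limma, where 9.13% of all genes were called higher and 6.48% lower (adjusted p 0.957 for Olfr985 and 0.822 for Olfr613).

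H3K9me2 over the receptors named by RNA level lay on both sides of input. Olfr985 stood at -0.16 and -0.13 in serum, -0.16 and -0.04 at 24 h, and -0.27 and 0.09 in LT2i. Olfr613 had -0.23 and 0.50 in serum, -0.78 and 0.17 at 24 h, and -0.93 and -0.13 in LT2i, which overlap. Olfr153, with 65 RNA reads over 10 libraries the most of the counted receptors, had -0.68 and -0.33 in serum, -0.90 and -0.72 at 24 h, and -1.25 and -0.93 in LT2i, below input in all 6. Olfr376, with 22 RNA reads, was above input in all 6 libraries, at 0.79 and 1.03 in serum, 0.90 and 0.95 at 24 h, and 0.59 and 0.41 in LT2i. Olfr1346, with 12 reads, was also above input throughout, at 0.38 and 0.34, 0.57 and 0.46, and 1.22 and 1.24. Olfr1383, with 8 reads, had 0.97 and 0.38, -0.11 and 0.49, and 0.51 and 0.58, and was above input in all but 1 library. Olfr1344, also with 8 reads, was below input in all 6, with condition means of -0.42, -0.53 and -0.34. Olfr147 (24 reads) averaged 0.01, 0.33 and -0.10 in the 3 conditions and Olfr836 (7 reads) -0.91, 0.28 and -0.28, and these changed side between conditions.

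**Figure D5:**
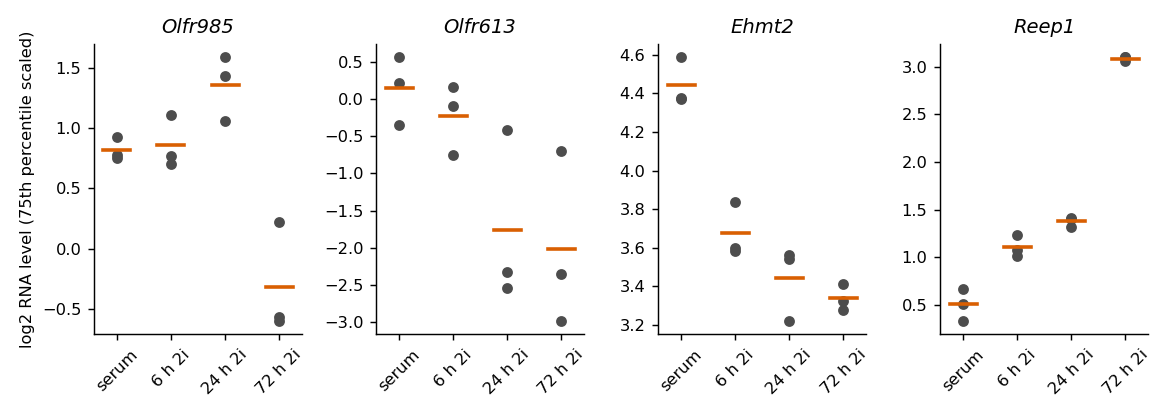
Deposited log2 RNA values (vertical axis, scaled separately in each panel) of the receptors Olfr985 and Olfr613, the methyltransferase Ehmt2 and the trafficking gene Reep1; each point is 1 of 12 libraries (serum, 6, 24 and 72 h of 2i) and each bar the mean of 3. Olfr985 lies between -0.60 and 1.59, while Ehmt2 starts at 4.37 to 4.59 in serum and ends at 3.28 to 3.41 at 72 h.

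Genes that act with the receptors, or in their choice and silencing, were taken as a list of 27, of which 15 were high enough to be tested. Among signalling genes, Adcy3, the adenylyl cyclase that makes cAMP on odour binding, was higher than in serum at 6 h (0.99 ± 0.14), 24 h (0.63 ± 0.14) and 72 h (0.55 ± 0.14). Cnga4, a subunit of the cAMP-gated channel whose gene lies just outside the class I cluster (chr7:105404568-105408738), had 0, 0 and 3 reads in serum, 70, 60 and 78 at 6 h, 3, 5 and 2 at 24 h, and 33, 22 and 34 at 72 h. It rose, fell back and rose again, with no overlap between serum and the 6 or 72 h libraries. Its fitted change of 5.73 at 6 h depends on how libraries without reads were entered. Reep1, which helps receptors to the cell surface, went from 0.67, 0.33 and 0.51 in serum to 3.10, 3.10 and 3.06 at 72 h (2.58 ± 0.11), and Gnal, the G protein subunit that odorant receptors couple to, rose at 72 h (1.90 ± 0.32). All of these had limma adjusted p under 0.05.

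Of the chromatin genes, the H3K9 methyltransferase Ehmt2 had 4.38, 4.37 and 4.59 in serum, 3.59, 3.60 and 3.84 at 6 h, 3.22, 3.56 and 3.54 at 24 h, and 3.28, 3.32 and 3.41 at 72 h. It was lower at every time, in all libraries, by -0.77 ± 0.12 at 6 h and -1.11 ± 0.12 at 72 h. Ehmt1 (-1.19 at 24 h and -1.41 at 72 h) and Cbx5, which encodes HP1 alpha (-1.52 and -1.26), were lower from 24 h. Setdb1 was lower at 24 h (-1.05) and at 72 h did not pass (-0.39, adjusted p 0.0641). Suv39h1 was lower at 72 h (-0.36), and Suv39h2 was higher at 24 h (0.33, adjusted p 0.0489). Atf5, a stress-response factor needed for receptor feedback, was higher at all times (0.72, 1.48 and 1.06), and Ric8b, a partner of Gnal, was lower at 24 h (-0.49).

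Over the whole list, of 15 tested, 4 genes were higher and 1 lower at 6 h (9.13% and 6.48% of all genes). At 24 h 5 were higher and 5 lower (34.2% and 29.1% of all genes). At 72 h 5 were higher and 4 lower (25.7% and 26.5% of all genes). The 24 and 72 h counts were near the shares of all genes. The 24 h count of higher genes was 4 without serum replicate 3, 5 without 24 h replicate 3, and 3 without any other library, and Cnga4 (adjusted p 0.0464) and Suv39h2 lay near the threshold. Kdm1a, Lbr and Ldb1 were expressed at 4.92 to 5.52 in serum and did not pass at any time. The neuronal factors Lhx2, Emx2, Ebf1, Ebf2, Ebf3 and Ebf4, the chaperones Rtp1 and Rtp2, and Cnga2, Cngb1, Ano2 and Omp were too low to be tested. Some of these low values still moved: Rtp2 averaged -5.61 in serum and -1.39 at 72 h, Lhx2 -3.95 and -0.93, and Emx2 -2.30 and -5.86. Without the filter limma called 7 of the 27 genes higher and 6 lower at 72 h, beside 3925 and 3924 of all 25965.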

How the data were processed

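The ChIP-seq table, as deposited, gives the log2 of the reads in each 2-kb bin after every library was brought to the size of the deepest, with 0.9 reads standing for none. Undoing that scaling gave whole reads (within 2%) for every value. The table lists only bins with a minimum of reads in all 3 inputs (6 to 8 reads at the lowest). RNA-seq values, likewise made log2 by the authors, share a common 75th percentile across libraries. Per the submitters' processing notes, tools included Trim Galore 0.3.5, TopHat2 2.0.11 and Bowtie2, without their roles, and the positions in both tables are GRCm38. Bisulfite files use NCBIM37 positions and were not used here.

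The groups and the replicate numbers came from the sample labels. Reads were analysed per bin, per 100-kb window (25 or more listed bins) and per gene body with limma 3.58.1 in R 4.3.3 (trend, 1 mean per group, all 9 libraries, residual df 3). Contrasts were bound less input, and that difference in 24 h 2i or LT2i less that in serum. RNA was tested with limma on genes at log2 0 or higher in 3 or more of 12 libraries. Calls were made at BH-adjusted p under 0.05 over all autosomal features or all genes tested, two-sided. The scripts were tested on simulated data. The members and gene lists were chosen with earlier results of these data known. Named receptors were the 5 highest and 5 lowest in serum, those called in LT2i (with up to 3 of the largest uncalled changes each way where fewer than 5 passed), and the 10 highest in RNA. Named clusters were the 8 largest and the highest and lowest in serum, and 3 more (a pair on chromosomes 11 and 4 that fell and 1 on chromosome 14) were named after their values were seen. Receptors with symbols ending in -ps (22) or on X or Y (7) were left out. Intervals cover counting error only. Alternatives were other scaling, read offsets, filters, membership rules, fits of bound libraries only, replicate blocks and leaving out each library.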

Additional observations from a re-analysis of the deposited data

How the results depend on the processing

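Among recomputed main values and counts, 365 stayed within the spread or within 1.5 times and 52 did not. The mean level of receptor bins was 0.29, 0.38 and 0.51 (serum, 24 h, LT2i) from summed reads, and 0.25 and 0.22 (24 h, LT2i) in bins with 1 kb or more in a gene, where 143 bins were above input and 17 below. Deviations of same-numbered libraries correlated at 0.50 for windows between serum and LT2i, at 0.018 and 0.037 for the other window pairs, at 0.001 to 0.057 for bins and genes, and at -0.25 to 0.81 for RNA. Not every pair was over 0.1, so the numbers were not taken to pair libraries, and the replicate block is given only here: in LT2i it called 85 bins higher (5.27%, 3.65% of all) and 33 lower (2.05%, 9.69%), 178 windows higher (65.9%, 39.8%) and 37 lower (13.7%, 40.6%), and 151 gene bodies higher (16.0%, 7.97%) and 34 lower (3.60%, 54.9%), and at 24 h 38 windows higher (14.1%, 6.47%) and 2 lower (0.741%, 7.83%). The block could not be fitted to bound over input, since inputs carry no number. It was fitted to the bound libraries only, so its counts also leave out the inputs. Without the block, bound libraries only gave 70 bins higher and 31 lower and 165 windows higher in LT2i. They also gave 140 gene bodies higher and 32 lower in LT2i, and 10 windows higher at 24 h. Median-centring gave 915 gene bodies above input (96.9%, 47.1% of all) and 2 below (0.212%, 38.7%). In LT2i it gave 91 higher (9.64%, 14.6%) and 1 lower (0.106%, 8.14%). With log2(reads + 1) 12 of 944 were higher, beside 442 of all 22807 genes. Leaving out 1 library at a time, gene bodies in LT2i ranged from 2 to 8 higher and from 3 to 10 lower. All genes ranged from 196 to 377 higher and from 4712 to 7863 lower in these fits. Receptor RNA at 24 h had 1 gene (Olfr985) higher under quantile normalisation and under the replicate block and 3 lower without a filter; leaving out 1 library, 0 to 1 higher, 0 to 1 lower, and at 72 h 1 to 2 lower. Signalling and chromatin genes higher at 24 h ranged from 3 to 5. The 6 h value of Olfr985 was -0.024 under quantile normalisation and -0.081 to 0.12 with 1 library left out. Including symbols ending in -ps, an alternative chosen after seeing the data, gave levels of 0.21, 0.28 and 0.35. The causes were not tested. The filter of 5 input reads removed no bin, so no filter gave the same values.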
